A study of Mus musculus with 25 samples.

Results

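The heat shock and unfolded protein response genes examined here are 37 of the 19762 genes in each deposited count table, taken from a list of gene symbols. Of them, 15 belong to the cytosolic and mitochondrial heat shock response and 22 to the folding and stress response of the endoplasmic reticulum (ER). The study measured polyadenylated RNA by 3′-end sequencing in 5XFAD mice, a transgenic Alzheimer's disease strain in which neurons make mutant human amyloid precursor protein and presenilin. All samples carried this background, and no wild-type group was analysed here. Whole choroid plexus, the tissue that secretes cerebrospinal fluid, gave 5 libraries from mice given an antibody against the immune checkpoint receptor PD-1 (anti-PD-1), 5 from mice given control IgG and 4 from untreated mice. Titles carry the letter M or F, which the labels do not spell out, on 2 and 3 of the anti-PD-1 libraries, 2 and 3 of the IgG libraries and 3 and 1 of the untreated libraries. These titles end in a number that is not spelled out either. It was 14 on the M libraries of both antibody groups, 6 to 14 on the untreated M libraries and 6 to 10 on the F libraries. In the antibody groups the letter and the end number therefore cannot be told apart. The other 11 libraries were brain myeloid cells gated as CD11b+ with high CD45 (CD45high; 2 libraries marked D14 and 3 marked D7) or low CD45 (CD45low; 3 marked D14 and 3 marked D7). Every sorted group received anti-PD-1, and there was no IgG or untreated group among them. The labels do not say what D14 and D7 count, how old the mice were, how much antibody they received, or whether sorted libraries are separate animals, so p-values measure the spread between libraries, which may be partly technical.

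Cells answer unfolded protein through separate programmes in separate compartments. In the cytosol, heat shock factor 1 (Hsf1) is held inactive by chaperones until misfolded protein draws them away, and it then switches on genes for chaperones such as Hspa1a, Hspa1b and Dnajb1. In the ER, the sensors IRE1, PERK and ATF6 are released when the chaperone BiP (Hspa5) is occupied, and their transcription factors Xbp1, Atf4 and Atf6 raise ER chaperones, disulphide isomerases and the machinery that exports failed protein for degradation. The choroid plexus epithelium is a secretory tissue with a large ER load, and microglia are known to raise heat shock and immediate early genes when brain tissue is dissociated.

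The DNA elements that carry these responses can be read in the members' promoters. RefSeq windows of 300 bases on GRCm38.p6, from 250 bases before to 50 bases after the annotated start, were available for 30 of the 37 genes and not for Atf6, Hsf1, Hsp90aa1, Hsp90ab1, Hspa8, Hyou1 and Manf. The ER stress element (CCAAT, 9 bases, CCACG, on either strand), which is bound by NF-Y with ATF6 or XBP1, was found in 8 of the 19 ER genes that had a window and in none of the 11 heat shock genes. Of all 27025 genes with a window 0.137% held it, and of all 32851 windows 0.119%. Because the list was drawn up from known stress response genes, this share describes the list and tests nothing. The elements are printed so that the sites through which ER stress is known to act on these genes can be seen, with capitals marking the element and each sequence turned so that CCAAT comes before CCACG.
Hspa5: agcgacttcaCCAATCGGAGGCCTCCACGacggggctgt
Hsp90b1, near element: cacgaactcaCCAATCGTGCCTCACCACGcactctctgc
Hsp90b1, far element: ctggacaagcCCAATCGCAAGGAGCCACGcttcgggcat
Calr: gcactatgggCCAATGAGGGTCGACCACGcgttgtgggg
Canx: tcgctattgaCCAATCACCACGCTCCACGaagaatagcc
Pdia6: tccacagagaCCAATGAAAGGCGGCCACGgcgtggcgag
Dnajc3: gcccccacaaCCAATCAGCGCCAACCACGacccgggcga
Creld2: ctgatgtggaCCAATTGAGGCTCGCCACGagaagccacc
Syvn1: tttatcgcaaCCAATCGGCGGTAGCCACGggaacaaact
Their positions were chr2:34772015-34772053 on the plus strand for Hspa5, chr10:86705523-86705561 on the plus strand and chr10:86705628-86705666 on the minus strand for Hsp90b1, and chr8:84847065-84847103 on the plus strand for Calr. For Canx the stretch was chr11:50325790-50325828 on the minus strand, for Pdia6 chr12:17266481-17266519 on the plus strand and for Dnajc3 chr14:118937817-118937855 on the plus strand. For Creld2 it was chr15:88819510-88819548 on the minus strand and for Syvn1 chr19:6046522-6046560 on the plus strand. The search fixes both boxes, and the 9 bases between them differed among all 9 elements.

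Herpud1, which encodes a membrane protein of ER-associated degradation, carried instead the shorter ER stress element II (ATTGG, 1 base, CCACG), found in 0.0365% of all windows. It lay at chr8:94386367-94386397 on the plus strand.
Herpud1: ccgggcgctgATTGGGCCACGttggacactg
The heat shock element, searched on both strands as GAANNTTCNNGAA, was found in Chordc1, Hspd1, Hspe1 and Hsph1, 4 of the 11 heat shock genes with a window. Of all genes with a window 0.662% held it, and of all windows 0.603%. The mitochondrial chaperonin genes Hspd1 and Hspe1 stand head to head, and a pair of overlapping elements between them, at chr1:55088049-55088086, was read from opposite strands in their windows, minus for Hspd1 and plus for Hspe1. In Chordc1 (chr9:18292263-18292285, plus strand) 3 overlapping matches spanned the start site, and in Hsph1 (chr5:149636288-149636300, printed from the plus strand of a gene on the minus strand) 1 match lay just after it.
Hspd1: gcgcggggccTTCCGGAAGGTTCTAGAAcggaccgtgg
Hspe1: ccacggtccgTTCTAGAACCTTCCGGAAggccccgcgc
Chordc1: GAACGTTCGGGAAAATTCCTGAA
Hsph1: GAACTTTCCAGAA
The strict spelling did not match the windows of Hspa1a, Hspa1b or Dnajb1, which says only that these letters are not there. The unfolded protein response element TGACGTGG matched no member and 0.676% of all windows. The amino acid response element TGATGNAA matched Herpud1 and Trib3 and 3.97% of all windows.

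Each choroid plexus library held 931461 to 1840072 counts and each sorted library 343439 to 974777 counts, so a count of 0 allows up to 3 counts, or 1.63 to 3.22 and 3.08 to 8.74 CPM (the usual scaling of a count to a common library total), for counting error only. Summed over the 12 choroid plexus epithelial markers, the choroid plexus libraries held between 152237 and 231787 CPM. The 8 microglial markers summed to 951 to 4301 CPM in CD45high libraries and 8413 to 13297 CPM in CD45low libraries. The 9 neutrophil markers summed to 9967 to 17345 CPM in CD45high libraries and 702 to 4201 CPM in CD45low libraries, and 6 monocyte markers to 3971 to 5224 CPM and 27.7 to 294 CPM. The gates therefore held different mixtures of cells, and in such bulk samples fewer cells of a type and less RNA per cell cannot be told apart. Hspa1a and Hspa1b, copies that match at 99.2% over 2201 aligned transcript bases, had no match of at least 95% over 100 bases in their last 500 bases, where the reads fall. The last bases of Hspa8 matched 8 other annotated genes, those of Hsp90ab1, Hspb1 and Hspe1 matched 1 each, and Dnaja1 overlaps Smu1, so the counts of these genes are uncertain.

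In the choroid plexus, no heat shock or ER gene was called between anti-PD-1 and IgG. None of the 36 members tested passed an adjusted p of 0.05 in edgeR's quasi-likelihood test, as in the background, where 0 of 9513 genes (0%) passed, and 1 member and 435 genes had an unadjusted p under 0.05. DESeq2 called 1 gene and no member. The log2 fold change was positive for 3 and negative for 12 of the 15 heat shock genes, with a median of -0.13, and positive for 9 and negative for 12 of the 21 ER genes tested, with a median of -0.05, beside a median of 0.00 over all genes. Markers of other cells leaned in the same comparison without being called. The 8 endothelial and 6 fibroblast markers tested were all negative (medians -0.34 and -0.49), and the 5 macrophage and 6 erythroid markers tested were all positive (medians 0.48 and 1.39). Erythroid markers summed to 4.49 to 292 CPM with anti-PD-1, 25.9 to 66.4 CPM with IgG and 59.8 to 86.1 CPM untreated, and fibroblast markers to 229.8 to 320.1 CPM with anti-PD-1, 257 to 549.7 CPM with IgG and 248 to 377 CPM untreated. The part of these cells in the members' values was not tested. Trib3, a target of Atf4 and Ddit3 that inhibits the kinase Akt, had 0 to 7 counts per library and was not tested. In counts simulated with the same spread for every gene, the test recovered 93% of 2-fold changes. There, 100 well counted genes were changed 2-fold and 100 changed 4-fold. That share does not carry over to members that vary more or have few counts, such as Hspa1b.

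**Figure D1:**
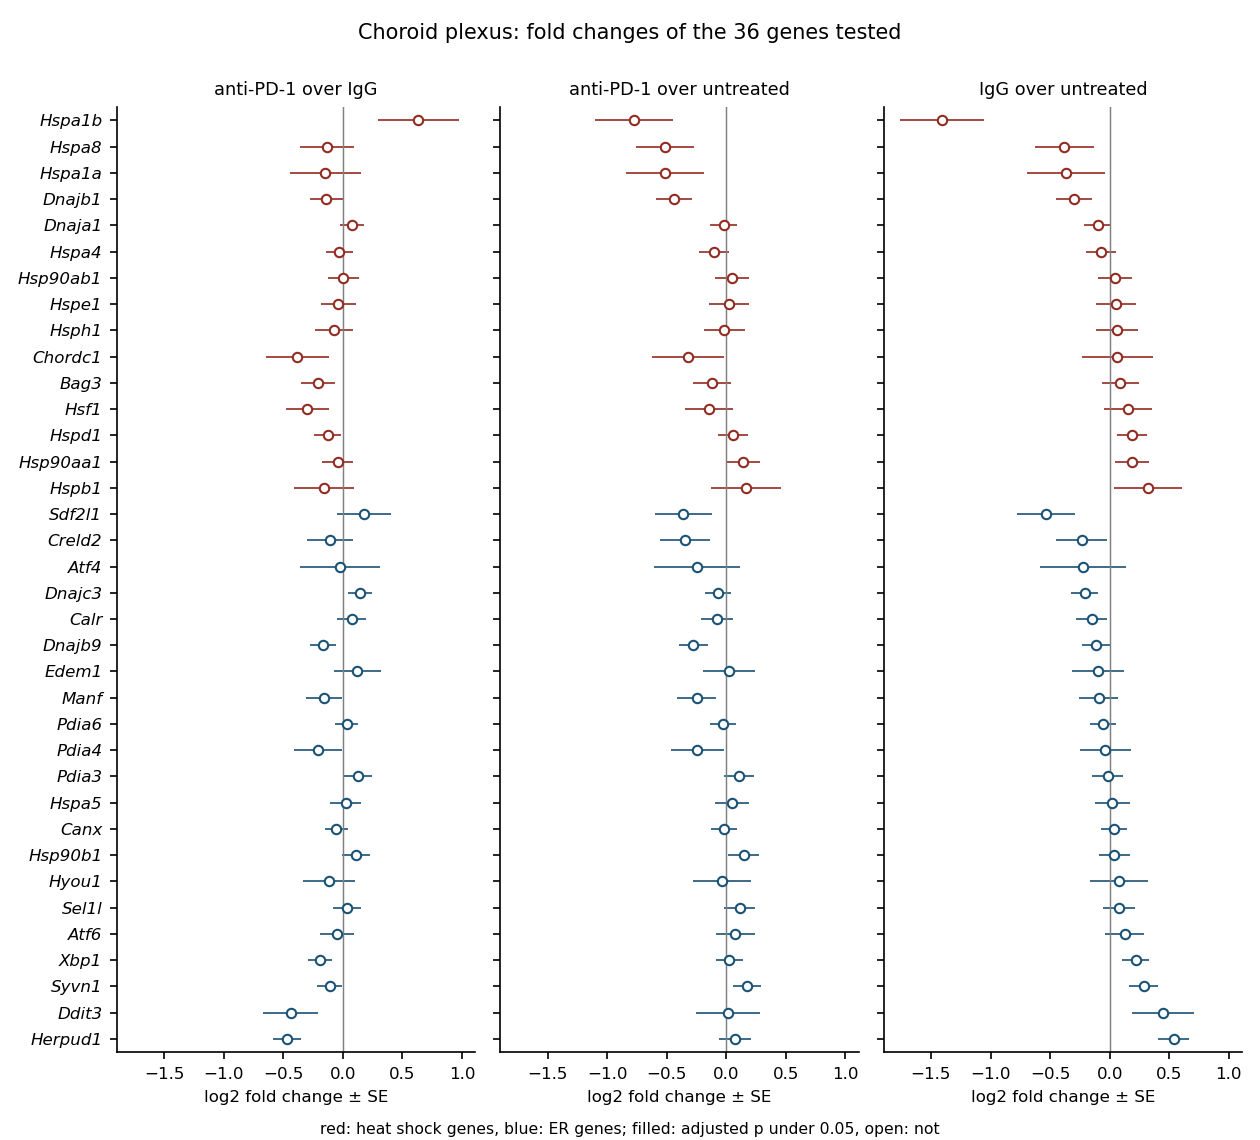
Log2 fold change of each of the 36 genes tested in choroid plexus (x axis; points with bars of 1 standard error) for anti-PD-1 over IgG, anti-PD-1 over untreated and IgG over untreated, with heat shock genes in red above ER genes in blue. Every point is open because no gene passed an adjusted p of 0.05, and Hspa1b in IgG over untreated lies farthest from 0 at -1.41.

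Herpud1 had the lowest p of the members. It had 219.6, 253, 231, 176 and 174 CPM in the anti-PD-1 libraries, 285, 314, 283, 323 and 243 CPM in the IgG libraries and 171, 219, 194 and 248 CPM in the untreated libraries. Only the lowest IgG library lay within the range of the other groups, whose own ranges covered each other. The log2 fold change was -0.46 ± 0.12 (standard error) for anti-PD-1 over IgG (adjusted p = 0.718) and 0.07 ± 0.13 for anti-PD-1 over untreated. For IgG over untreated it was 0.54 ± 0.13 (adjusted p = 0.486). These comparisons share their IgG and anti-PD-1 libraries and are not independent of each other. Within the libraries lettered F the anti-PD-1 over IgG value was -0.54 ± 0.16, and within those lettered M it was -0.34 ± 0.19. Without a filter on low counts, where 0.205% of genes were called, the adjusted p of Herpud1 for anti-PD-1 over IgG was 0.0486.

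The other ER regulators showed smaller differences. Ddit3, the stress transcription factor CHOP, had 21.4, 14.67, 18.0, 17.0 and 19.8 CPM with anti-PD-1, 36.3, 15.7, 23.8, 29.3 and 19.4 CPM with IgG and 19.1, 16.0, 17.0 and 21.3 CPM untreated. Its anti-PD-1 over IgG value was -0.44 ± 0.23 (adjusted p = 0.999), and the groups overlapped. Xbp1, whose spliced form drives ER expansion, had 469, 428, 449.7, 424 and 381 CPM with anti-PD-1, 428, 485, 447, 548 and 545 CPM with IgG and 401, 487, 374 and 444 CPM untreated, with a value of -0.19 ± 0.10 over IgG (adjusted p = 0.999). The counts do not tell spliced from unspliced Xbp1. Dnajb9, an ER co-chaperone of BiP, followed with -0.16 ± 0.11 (adjusted p = 0.999).

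BiP itself, Hspa5, had 1666, 2041, 1989, 1389 and 1283 CPM with anti-PD-1, 1436, 1677, 1316, 2259 and 1514 CPM with IgG and 1598, 1707, 1648 and 1590.1 CPM untreated. The untreated libraries were tightly grouped and the antibody groups spread around them on both sides. Atf6, the sensor that is cleaved into a transcription factor, had 102, 85.4, 89.8, 52.7 and 63.4 CPM with anti-PD-1, 83.0, 71.1, 84.7, 80.6 and 80.3 CPM with IgG and 85.2, 71.0, 72.7 and 79.0 CPM untreated. Atf4, the factor translated when PERK is active, was near the limit of these libraries. It had 6.51, 7.77, 8.23, 4.68 and 5.55 CPM with anti-PD-1, 8.30, 8.32, 3.72, 6.52 and 6.64 CPM with IgG and 10.03, 9.57, 7.27 and 7.10 CPM untreated, or 5 to 12 counts per library, and the groups overlapped.

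Among the heat shock genes, the inducible chaperone Hspa1b had the widest spread between groups. It had 23.3, 19.8, 20.95, 8.78 and 5.55 CPM with anti-PD-1, 14.5, 4.62, 8.18, 8.96 and 11.1 CPM with IgG and 43.1, 24.7, 17.0 and 40.8 CPM untreated. The IgG and untreated libraries did not overlap, while anti-PD-1 libraries reached into both ranges. The log2 fold change was 0.63 ± 0.34 for anti-PD-1 over IgG (adjusted p = 0.999), -0.77 ± 0.33 for anti-PD-1 over untreated (adjusted p = 0.998) and -1.41 ± 0.35 for IgG over untreated (adjusted p = 0.486). Of the untreated libraries 3 of 4 carried the letter M, and within M alone IgG over untreated was -1.93, with an adjusted p of 0.276. Without IgG replicate 2 the anti-PD-1 over IgG value was 0.36, and without anti-PD-1 replicate 3 it was 0.35. Without the filter on low counts, where 0.179% of genes were called for IgG over untreated, Hspa1b and Herpud1 had adjusted p-values of 0.00465 and 0.0318.

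Its near copy Hspa1a had 22.3, 25.0, 36.7, 12.9 and 14.3 CPM with anti-PD-1, 21.8, 24.9, 21.6, 37.5 and 16.6 CPM with IgG and 49.1, 48.7, 17.0 and 24.9 CPM untreated. All 3 groups overlapped, and anti-PD-1 over untreated was -0.51 ± 0.33 (adjusted p = 0.998). Hsf1, the master regulator, had 90.3, 53.5, 98.8, 87.2 and 76.9 CPM with anti-PD-1, 136, 115, 71.4, 88.8 and 93.6 CPM with IgG and 60.2, 86.1, 124 and 84.3 CPM untreated. Its anti-PD-1 over IgG value was -0.30 ± 0.18 (adjusted p = 0.999). It was 0.05 ± 0.19 within F and -0.81 ± 0.24 within M, and the F minus M difference of 0.86 ± 0.30 had an adjusted p of 0.999.

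The constitutive chaperone Hspa8 had 135, 104, 84.6, 151 and 169.6 CPM with anti-PD-1, 142, 85.0, 77.3, 198 and 206 CPM with IgG and 188, 104, 185 and 210.4 CPM untreated. Each group held both high and low libraries, and anti-PD-1 over untreated was -0.51 ± 0.24 (adjusted p = 0.998). Hsp90aa1, the inducible HSP90, had 734, 673, 768, 431 and 487 CPM with anti-PD-1, 613, 762, 552, 728 and 522 CPM with IgG and 596, 586, 518 and 682 CPM untreated. The anti-PD-1 libraries of Hsp90aa1 fell into 3 higher and 2 lower ones, and both untreated and IgG values lay inside that range.

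**Figure D2:**
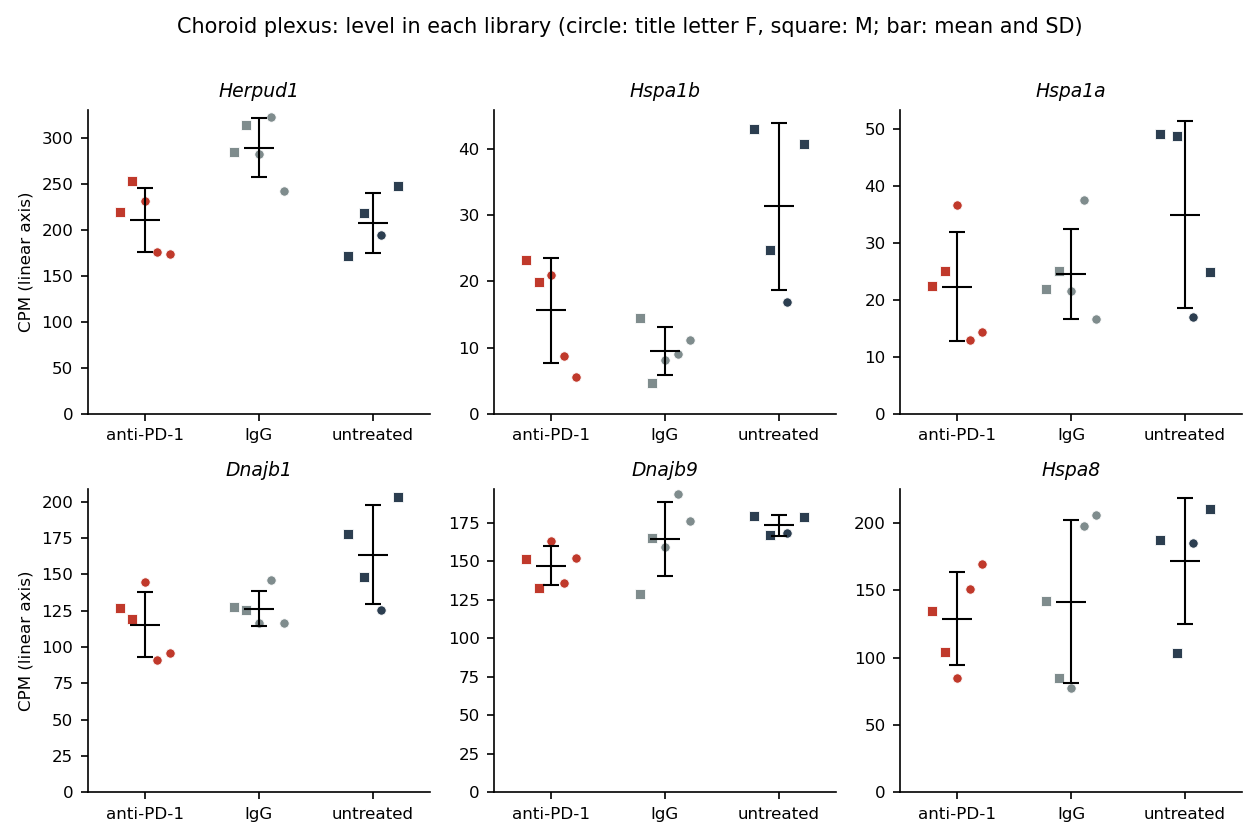
Level in each choroid plexus library (y axis, CPM on a linear scale from 0) of Herpud1, Hspa1b, Hspa1a, Dnajb1, Dnajb9 and Hspa8, with circles for libraries lettered F, squares for those lettered M and black bars for the mean and SD. Herpud1 sits highest under IgG (243 to 323 CPM), and Hspa1b under IgG (4.62 to 14.5 CPM) lies below every untreated library (17.0 to 43.1 CPM).

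Against untreated mice, anti-PD-1 gave 0 called members, with 0% of all 9513 genes called. Unadjusted, 4 members and 362 genes had a p under 0.05, and DESeq2 called 2 genes and no member. The lowest p belonged to Dnajb1, the co-chaperone that directs HSP70, with 127, 119, 144, 90.7 and 95.9 CPM with anti-PD-1, 128, 126, 117, 146 and 116 CPM with IgG and 177, 148, 125 and 203 CPM untreated. Only the lowest untreated library lay inside the anti-PD-1 range (log2 fold change -0.44 ± 0.15, adjusted p = 0.998). Dnajb9 had 152, 133, 163, 136 and 152 CPM with anti-PD-1, 129, 165, 159, 194 and 176 CPM with IgG and 179, 167, 168 and 178 CPM untreated. The anti-PD-1 and untreated libraries of Dnajb9 did not overlap (-0.28 ± 0.12, adjusted p = 0.998). Creld2, an ER chaperone, had 60.5, 82.0, 65.1, 38.6 and 46.8 CPM with anti-PD-1, 42.5, 49.9, 54.3, 90.4 and 72.0 CPM with IgG and 76.2, 79.8, 68.7 and 71.0 CPM untreated, and its groups overlapped (-0.35 ± 0.21, adjusted p = 0.998). Fold changes were positive for 5 and negative for 10 heat shock genes (median -0.11) and positive for 10 and negative for 11 ER genes (median -0.02). Of the markers tested, 7 of 8 endothelial and 6 of 6 fibroblast ones were negative (medians -0.24 and -0.21) and 6 of 6 erythroid ones positive (median 0.08), with none called.

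For IgG over untreated, 0% of all genes and no member passed, with 4 members and 475 genes at an unadjusted p under 0.05 and 2 genes called by DESeq2. After Herpud1 and Hspa1b came Syvn1, the ubiquitin ligase of ER-associated degradation, with 210.3, 196, 166, 173 and 195 CPM with anti-PD-1, 184, 212, 179, 207 and 228 CPM under IgG and 167, 193, 158 and 161 CPM untreated. A single untreated library reached the IgG range (0.28 ± 0.12, adjusted p = 0.994). Sdf2l1, a partner of BiP, had 54.9, 51.8, 75.6, 36.9 and 83.2 CPM with anti-PD-1, 52.9, 60.1, 32.7, 80.6 and 41.5 CPM under IgG and 67.2, 49.5, 106 and 68.4 CPM untreated. Its groups overlapped widely (-0.54 ± 0.24, adjusted p = 0.994). Dnajc3, an ER co-chaperone, had 404, 373, 342, 376 and 400.3 CPM with anti-PD-1, 315, 290.1, 340.4, 393 and 379 CPM under IgG and 409, 353, 420.2 and 359.6 CPM untreated. The difference was -0.21 ± 0.11 for Dnajc3 and -0.30 ± 0.15 for Dnajb1, whose IgG and untreated libraries overlapped too. The medians were 0.06 over heat shock genes (9 positive, 6 negative) and -0.02 over ER genes (10 positive, 11 negative). Here the 6 fibroblast markers tested were all positive (median 0.23), and the 5 macrophage and 6 erythroid markers all negative (medians -0.46 and -1.31), with none called.

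In the choroid plexus the same values were also taken within the letters F and M, which in the antibody groups go with different end numbers of the titles. Within F, anti-PD-1 over IgG was positive for 5 and negative for 10 heat shock genes and positive for 9 and negative for 12 ER genes, with medians of -0.10 and -0.13. Within M the counts were 8 and 7 and 13 and 8, with medians of 0.02 and 0.06. No gene passed the test of the F minus M difference (310 had an unadjusted p under 0.05). Creld2 had the lowest p for it among the members, with -0.53 ± 0.21 within F, 0.62 ± 0.28 within M and a difference of -1.15 ± 0.35 (adjusted p = 0.999).

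Between the sorted gates the picture differed. Averaged over D14 and D7, 22 of the 35 members tested passed, 20 of them lower and 2 higher in CD45high cells. That is to be read against a background in which 53.2% of all 9058 genes passed, 26.4% lower and 26.8% higher. Of the 15 heat shock genes 7 were lower and 2 higher, with a median log2 fold change of -0.37, and of the 20 ER genes 13 were lower and none higher, with a median of -0.54, beside -0.08 over all genes. Summed over the 22 ER genes, CD45high libraries held 4637 to 5320 CPM and CD45low libraries 6171 to 7427 CPM, without overlap. Not every ER list summed this way. The 32 further ER folding and degradation genes held 5054 to 5823 CPM in CD45high and 4413 to 5020 CPM in CD45low libraries. The 23 targets of PERK and ATF4 held 3529 to 3989 and 2649 to 3363 CPM, also higher in CD45high without overlap. The 11 sensors and processing factors overlapped, with 550 to 674 and 563 to 627 CPM. The 15 heat shock genes summed to 1391 to 2004 CPM in CD45high libraries and 1703 to 3289 CPM in CD45low libraries, which overlap. CD45high libraries share leading title numbers with CD45low libraries of the same D, and the labels do not say whether these mark the same animals. With a block by that number 19 members passed, without Hspa5, Hspb1 and Pdia3. With no block 3 heat shock genes were positive and 12 negative. With the block the signs were nearly balanced and the heat shock median was close to nil, as given in the closing section.

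**Figure D3:**
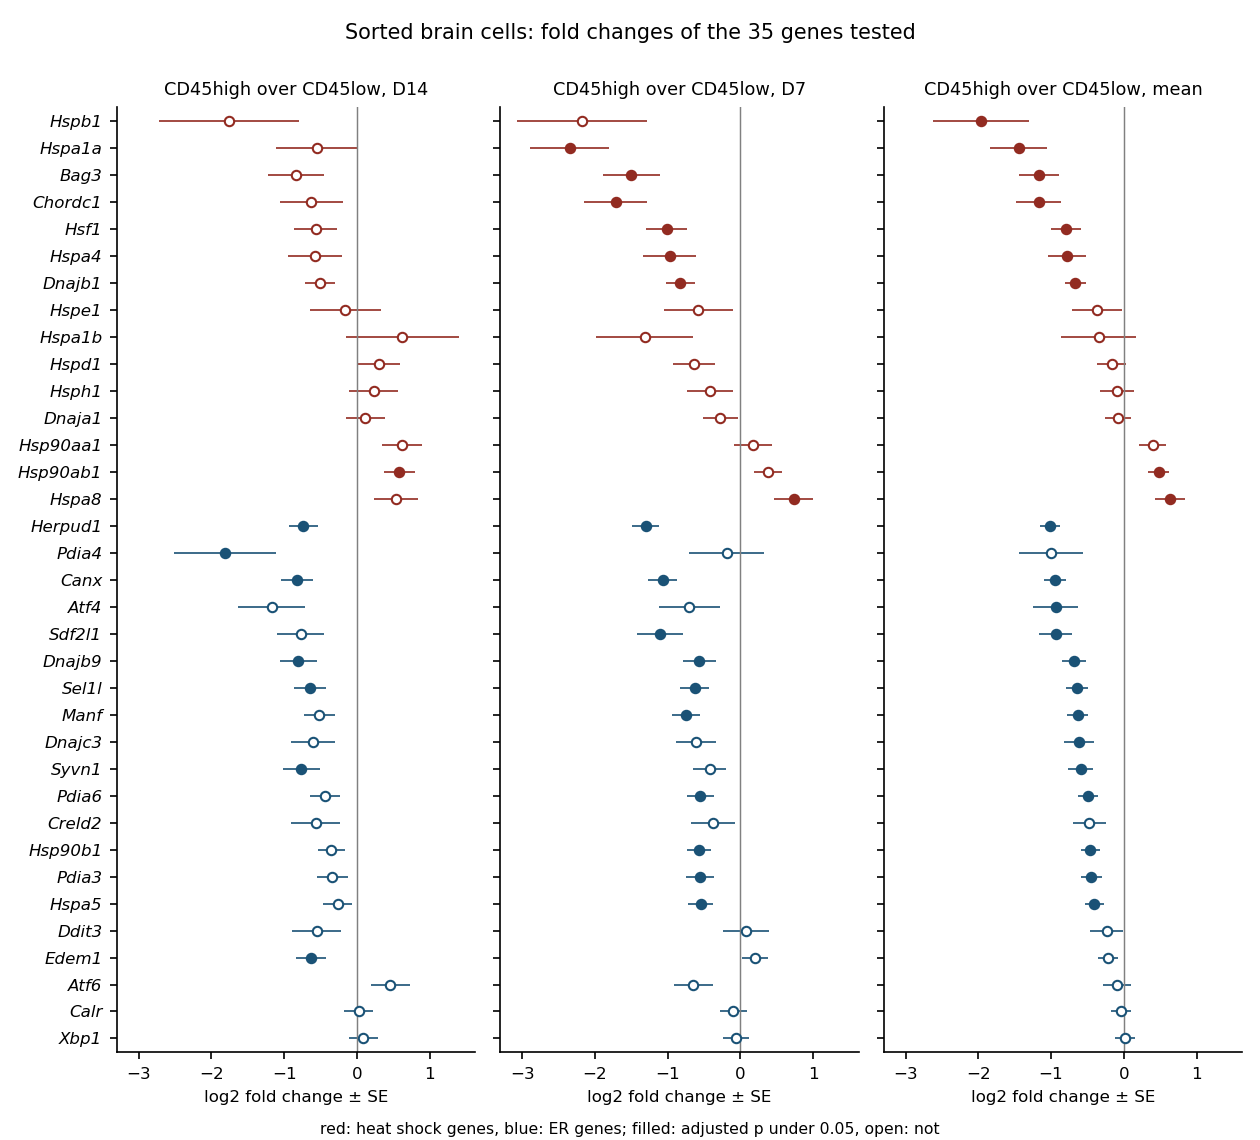
Log2 fold change of each of the 35 genes tested in sorted cells (x axis; points with bars of 1 standard error) for CD45high over CD45low at D14, at D7 and as their mean, with heat shock genes in red above ER genes in blue and filled points for an adjusted p under 0.05. In the mean, 13 ER genes are filled and all lie left of 0, while Hsp90ab1 and Hspa8 are the filled points right of 0.

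Herpud1 and the lectin chaperone Canx, which holds unfolded glycoproteins in the ER, had the lowest p-values. Herpud1 had 281 and 271 CPM in the CD45high D14 libraries and 199.7, 211 and 172 CPM in the CD45high D7 libraries, against 420.4, 469 and 490.3 CPM in CD45low D14 and 427, 453 and 557 CPM in CD45low D7. Every CD45high library lay below every CD45low library (log2 fold change -1.02 ± 0.14, adjusted p = 3.6e-06). Canx had 309 and 224 CPM in CD45high D14 and 268, 261 and 239.5 CPM in CD45high D7, against 509, 440.3 and 470.1 CPM in CD45low D14 and 614, 568 and 424 CPM in CD45low D7. Here too the gates did not overlap (-0.95 ± 0.15, adjusted p = 1.9e-05).

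Other ER chaperones were lower by less. Hspa5 had 962 and 920.2 CPM in CD45high D14 and 848, 848 and 655 CPM in CD45high D7, against 1215, 1052 and 1129.7 CPM in CD45low D14 and 1063, 1062 and 1299 CPM in CD45low D7. The gates did not overlap, and the difference was -0.40 ± 0.13 (adjusted p = 0.0136). Hsp90b1, the ER member of the HSP90 family, averaged 349.9 ± 1.87 and 332 ± 33.2 CPM in CD45high D14 and D7 and 446 ± 21.1 and 491 ± 26.7 CPM in CD45low D14 and D7 (SD; -0.46 ± 0.13, adjusted p = 0.00486). Sdf2l1 had 52.7 and 39.0 CPM in CD45high D14 and 26.2, 41.1 and 36.2 CPM in CD45high D7, against 94.7, 59.5 and 82.8 CPM in CD45low D14 and 76.0, 76.3 and 71.3 CPM in CD45low D7 (-0.94 ± 0.23, adjusted p = 0.0017). The gates of both genes were fully separate.

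Some disulphide isomerases, co-chaperones and degradation genes of the list were also lower, and others did not pass. Pdia6 and Pdia3 differed by -0.49 ± 0.14 and -0.45 ± 0.15, and the related Pdia4, with 3 to 35 counts per library, did not pass (adjusted p = 0.0616). Dnajb9 had 118 and 136 CPM in CD45high D14 and 137, 135 and 174 CPM in CD45high D7, against 163, 223 and 275 CPM in CD45low D14 and 203, 249 and 212 CPM in CD45low D7. Only 1 library of each gate crossed over (-0.68 ± 0.17, adjusted p = 0.00201). Dnajc3, like Dnajb9 a J-domain partner of BiP, differed by -0.61 ± 0.20. Sel1l and Syvn1, which form the ligase complex of ER-associated degradation, differed by -0.64 ± 0.15 and -0.59 ± 0.17. Manf, a secreted survival factor that is induced by ER stress, differed by -0.63 ± 0.14. Of the 8 ER genes with the ER stress element of CCAAT and CCACG, 6 were lower and none higher (median -0.48), with Calr and Creld2 not passing. Of the 12 other ER genes tested, which include Herpud1 with its element II, 7 were lower and none higher (median -0.64), beside 26.4% lower over all genes. Atf6 and Manf, counted among these 12, had no window and were not searched. Among the 4 heat shock genes with a heat shock element Chordc1 was lower and the other 3 did not pass, and among the 11 others 6 were lower and 2 higher. These 11 include Hsf1 (lower), Hspa8 and Hsp90ab1 (higher) and Hsp90aa1, which had no window. Whether those genes hold the element was not searched.

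Of the regulators of the unfolded protein response, Xbp1, Ddit3 and Atf6 did not pass. Xbp1 had 657 and 462 CPM in CD45high D14 and 573, 604 and 610.1 CPM in CD45high D7, against 498, 495 and 586 CPM in CD45low D14 and 601, 571 and 693 CPM in CD45low D7. The gates overlapped throughout (0.02 ± 0.14, adjusted p = 0.933). Ddit3 had 72.6 and 69.8 CPM in CD45high D14 and 115, 88.0 and 56.5 CPM in CD45high D7, against 77.4, 115 and 119.6 CPM in CD45low D14 and 51.7, 102 and 87.7 CPM in CD45low D7, and it also overlapped (-0.24 ± 0.23, adjusted p = 0.409). Atf6 had 182 and 98.6 CPM in CD45high D14 and 75.3, 58.7 and 72.3 CPM in CD45high D7, against 106, 103 and 97.5 CPM in CD45low D14 and 95.02, 109 and 121 CPM in CD45low D7. All CD45high D7 libraries of Atf6 were below the CD45low ones, and a single CD45high D14 library was above them (mean -0.09 ± 0.19, adjusted p = 0.71). The calcium-binding chaperone Calr was at -0.04 ± 0.14 and Edem1, which picks glycoproteins for degradation, at -0.22 ± 0.14, and neither passed. Hyou1 and Trib3 had 2 to 25 and 0 to 6 counts per library and were not tested.

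The 7 heat shock genes that were lower were Hspa1a, Dnajb1, Hspb1, Bag3, Chordc1, Hspa4 and Hsf1. Hspa1a had 125 and 71.9 CPM in CD45high D14 and 39.3, 117 and 27.1 CPM in CD45high D7, against 88.5, 165 and 178 CPM in CD45low D14 and 86.6, 532 and 296 CPM in CD45low D7. The gates overlapped, with the second CD45low D7 library far above all others (-1.45 ± 0.40, adjusted p = 0.00448). Hspa1b had 90.8 and 61.6 CPM in CD45high D14 and 65.5, 164 and 47.5 CPM in CD45high D7, against 28.3, 30.2 and 88.3 CPM in CD45low D14 and 23.2, 465 and 190.1 CPM in CD45low D7. It did not pass (-0.35 ± 0.52, adjusted p = 0.597), as its CD45low libraries lay both above and below the CD45high ones. Without the second CD45low D7 library Hspa1a was at -1.08 (adjusted p = 0.0164) and Hspa1b at 0.24, and the heat shock genes tested were 6 positive and 8 negative, with a median of -0.19, 5 called lower and 2 higher.

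Bag3, the co-chaperone that links HSP70 to autophagy, had 67.2 and 61.6 CPM in CD45high D14 and 26.2, 29.3 and 52.0 CPM in CD45high D7, against 68.8, 97.04 and 178 CPM in CD45low D14 and 86.6, 143 and 82.2 CPM in CD45low D7 (-1.17 ± 0.28, adjusted p = 0.00145). Chordc1, an HSP90 co-chaperone, had 58.1 and 59.6 CPM in CD45high D14 and 13.1, 67.5 and 27.1 CPM in CD45high D7, against 83.6, 51.3 and 137 CPM in CD45low D14 and 127, 138 and 85.9 CPM in CD45low D7 (-1.17 ± 0.31, adjusted p = 0.00349). The gates did not overlap for Bag3 and overlapped for Chordc1. Dnajb1 was at 251 and 244 CPM in CD45high D14 and 154, 179 and 183 CPM in CD45high D7, against 339, 352 and 367 CPM in CD45low D14 and 276, 376 and 261 CPM in CD45low D7. All its CD45high libraries were below all CD45low libraries (-0.67 ± 0.14, adjusted p = 0.000574).

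Hsf1 followed the same direction. It had 78.1 and 69.8 CPM in CD45high D14 and 39.3, 67.5 and 58.8 CPM in CD45high D7, against 136, 91.5 and 103 CPM in CD45low D14 and 88.7, 123 and 128 CPM in CD45low D7. The gates did not overlap (-0.79 ± 0.21, adjusted p = 0.003). Hspb1, a small heat shock protein that holds unfolded chains, had only 4 counts in all in the CD45high D14 libraries and 4 in CD45high D7, against 5 to 33 counts in each CD45low library. Its fitted log2 fold change of -1.97 ± 0.66 (adjusted p = 0.0167) rests on those few counts. In the scaled table it had 6 and 9 reads in CD45high D14 and 10, 5 and 0 reads in CD45high D7, against 76, 75 and 100 reads in CD45low D14 and 69, 162 and 65 reads in CD45low D7. There the gates were fully separate (-2.82, adjusted p = 1.1e-05).

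The genes higher in CD45high cells were constitutive chaperones. Hspa8 had 78.1 and 94.5 CPM in CD45high D14 and 108, 161 and 83.6 CPM in CD45high D7, against 61.5, 59.5 and 57.0 CPM in CD45low D14 and 61.2, 70.4 and 80.4 CPM in CD45low D7 (0.64 ± 0.20, adjusted p = 0.0119). Hsp90ab1, the constitutive HSP90, had 261 and 320.4 CPM in CD45high D14 and 318, 358 and 348 CPM in CD45high D7, against 192, 193 and 197 CPM in CD45low D14 and 199.6, 320.0 and 267 CPM in CD45low D7 (0.48 ± 0.14, adjusted p = 0.00874). Within each D, Hspa8 levels did not overlap between gates, and those of Hsp90ab1 overlapped at D7. Without CD45high D14 replicate 2 neither gene passed, and Hspa5, Dnajc3, Hspb1 and Pdia3 were also lost, leaving 16 called members. Hsp90aa1 had 274 and 207 CPM in CD45high D14 and 111, 261 and 183 CPM in CD45high D7, against 156, 174 and 141 CPM in CD45low D14 and 176, 191 and 122 CPM in CD45low D7, and it did not pass (0.40 ± 0.19, adjusted p = 0.0885). The remaining chaperones Hspe1, Hspd1, Dnaja1 and Hsph1 had log2 fold changes between -0.37 and -0.08, none of which passed.

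**Figure D4:**
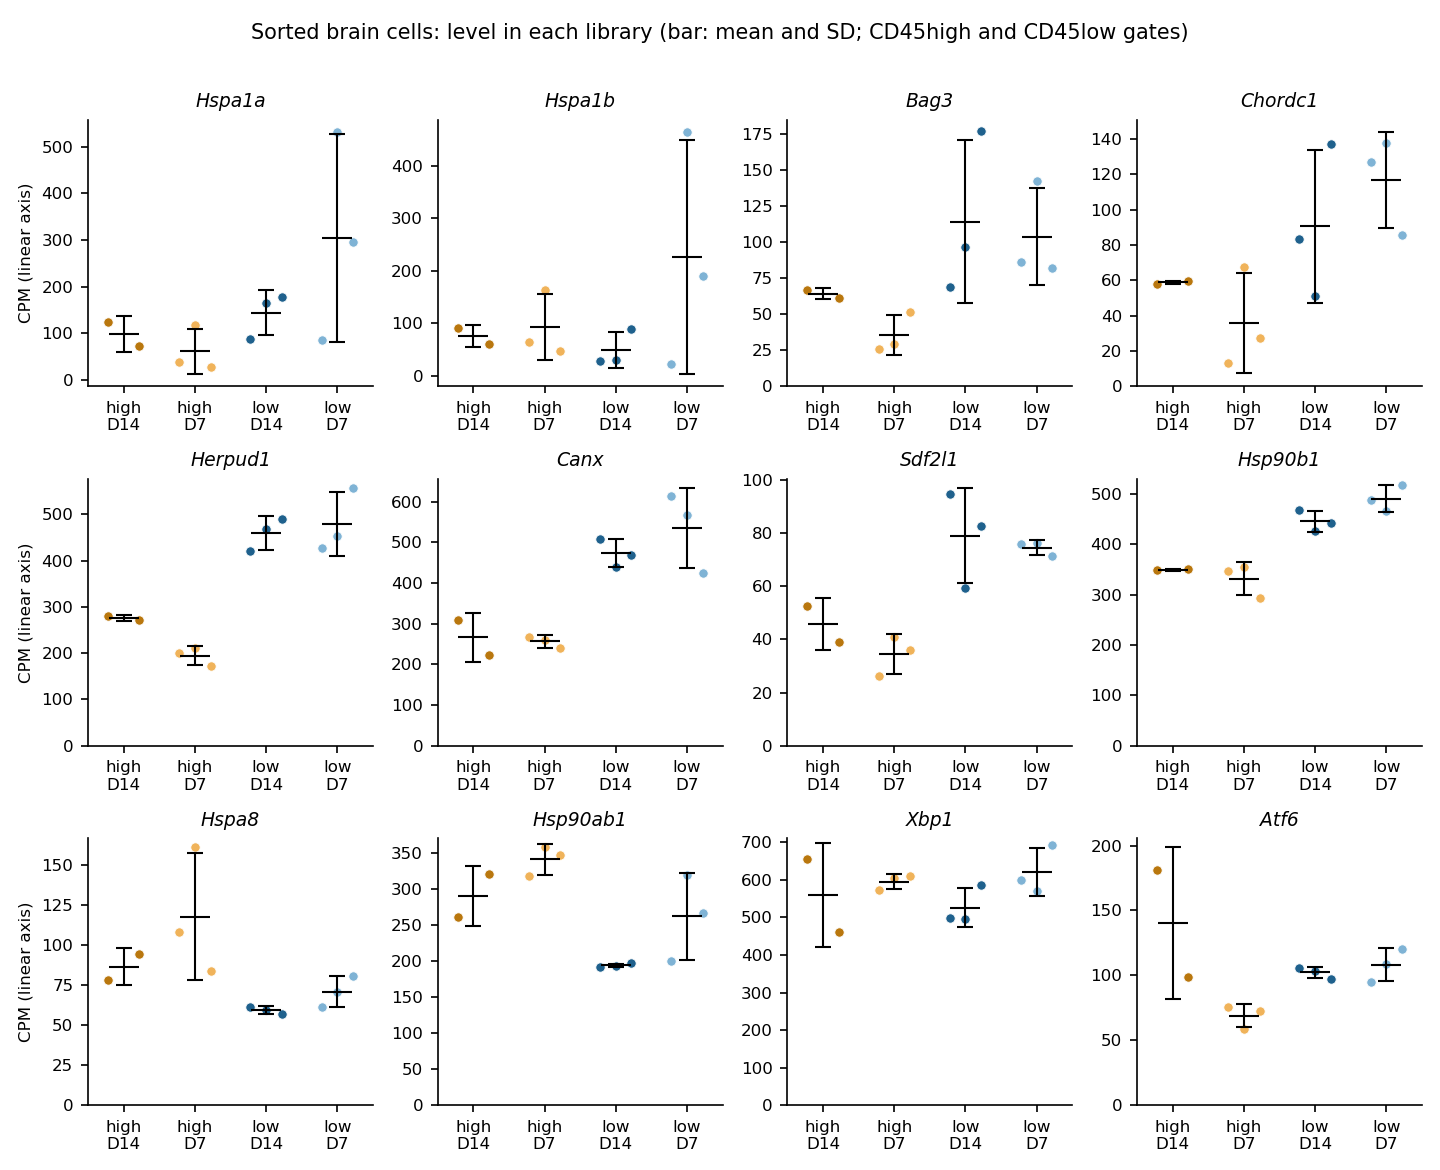
Level in each sorted library (y axis, CPM on a linear scale) of 12 genes of the module in CD45high D14, CD45high D7, CD45low D14 and CD45low D7, with black bars for the mean and SD. Herpud1, Canx, Sdf2l1 and Hsp90b1 are lower in every CD45high library, Hspa8 leans the other way, and a single CD45low D7 library carries the highest Hspa1a and Hspa1b (532 and 465 CPM).

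The deposited tables of the sorted cells disagree on the amount of some members. From the scaled table the whole reads behind each value could be recovered, and over the 11 libraries Atf4 had 288 counts but 7589 recovered reads, Hspa8 564 and 7320, Hsp90ab1 1912 and 7438 and Hspb1 95 and 577. Among the 34 members with at least 100 counts, 11.8% had over 2 reads per count, beside 8.79% of 8329 such genes in all. Calls for Atf4 and Hspa4, an HSP110-type exchange factor of HSP70, depended on the table. In the counts, Atf4 had 16.3 and 24.6 CPM in CD45high D14 and 29.5, 35.2 and 13.6 CPM in CD45high D7, against 60.2, 43.9 and 34.96 CPM in CD45low D14 and 52.8, 35.7 and 34.7 CPM in CD45low D7, and it passed as lower (-0.94 ± 0.31, adjusted p = 0.0158). In the recovered reads, scaled to CPM in the same way, it had 705 and 677 CPM in CD45high D14 and 709, 753 and 575 CPM in CD45high D7, against 754, 727 and 775 CPM in CD45low D14 and 729.7, 723 and 970.0 CPM in CD45low D7. Those ranges overlap, and Atf4 did not pass (-0.19, adjusted p = 0.254). In the counts Hspa4 had 45.4 and 59.6 CPM in CD45high D14 and 39.3, 55.7 and 27.1 CPM in CD45high D7, against 70.1, 70.5 and 93.8 CPM in CD45low D14 and 85.5, 102 and 43.9 CPM in CD45low D7. A single CD45low library lay within the CD45high range. Hspa4 was at -0.78 ± 0.26 in the counts (adjusted p = 0.0161) and -0.09 in the reads (adjusted p = 0.664).

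On the recovered reads 21 members passed, with 55.7% of all genes called, and 20 of them were also called in the counts. Pdia4 was the added gene (-1.07, adjusted p = 0.00741). Hspa8 and Hsp90ab1 were higher in both tables, with 0.66 and 0.55 in the reads, and Herpud1 and Canx were lower in both, with -1.08 and -1.02.

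**Figure D5:**
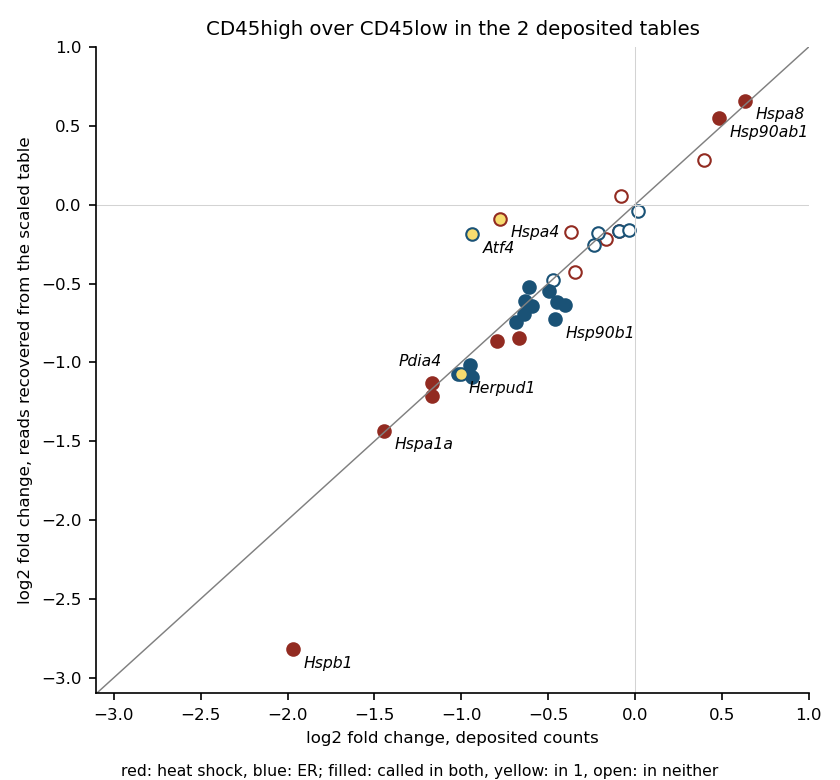
Log2 fold change of CD45high over CD45low for the 35 genes tested in the deposited counts (x axis) and in the reads recovered from the scaled table (y axis), with a grey line where both are equal. Most genes lie near the line, while Atf4 and Hspa4 (yellow, called in the counts alone) lie well above it and Hspb1 below it.

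Taken at each D, the gate difference was called for 17 members at D7 and 8 at D14. At D7, where 42.8% of all genes passed (22.3% higher, 20.5% lower), 6 heat shock and 10 ER genes were lower and Hspa8 was higher, with medians of -0.82 and -0.56 beside -0.08 over all genes. Hspa1a, Chordc1 and Bag3 led the heat shock genes at D7, with -2.34 ± 0.55, -1.71 ± 0.43 and -1.50 ± 0.39. At D14, where 35.5% passed (20.5% higher, 15% lower), no heat shock gene was lower, Hsp90ab1 was higher, and 7 ER genes were lower, namely Canx, Herpud1, Dnajb9, Syvn1, Edem1, Sel1l and Pdia4. The medians at D14 were -0.16 for heat shock and -0.59 for ER genes, beside -0.04 over all genes. With 2 CD45high libraries at D14 the calls rest on few samples. Without CD45high D14 replicate 1 only Canx passed, without replicate 2 no member did, and without CD45low D14 replicate 3 there were 3. With a block by leading title number only Canx passed. On the recovered reads, with 38.3% of all genes called, 16 members passed. Those added there include the heat shock genes Dnajb1, Hspb1 and Hspa8, so the few heat shock calls at D14 depend on which reads are counted.

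A larger count at D7 is not a difference between D7 and D14. The direct test of the gate difference at D14 minus that at D7 called 0% of genes and no member in edgeR, with 4 members and 544 genes at an unadjusted p under 0.05, and DESeq2 called no member. Of the 15 heat shock genes 14 had a positive and 1 a negative value (median 0.45), and of the ER genes 12 and 8 (median 0.12), beside 0.06 over all genes. The lowest p-values were those of Edem1 (-0.83 ± 0.28), Atf6 (1.11 ± 0.38), Hspd1 (0.94 ± 0.40) and Hspa1a (1.80 ± 0.79), with adjusted p-values of 0.773 to 0.811. CD45low D7 replicate 2 stood apart in this arm, with a mean log2 CPM over the 15 heat shock genes of 7.42 against 6.57 and 6.72 in the other libraries of its group. Without it the median of the heat shock genes was 0.33 (13 positive, 1 negative), Hspa1a was at 1.08 ± 0.71 and Hspa1b at 0.77 ± 0.91 in place of 1.94 ± 1.03.

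Comparing D14 with D7 inside a gate gave no called member in edgeR or DESeq2. In CD45low cells 0.0994% of all genes passed, and 4 members and 665 genes had an unadjusted p under 0.05. The members were Hspa1b (-2.19 ± 0.65, adjusted p = 0.339), Manf (-0.48 ± 0.18), Hspa1a (-1.08 ± 0.46) and Hsp90ab1 (-0.43 ± 0.19). Manf had 234, 211 and 248 CPM in CD45low D14 against 337, 294 and 336 CPM in CD45low D7, without overlap, beside 149 and 175 CPM in CD45high D14 and 180.0, 226 and 169 CPM in CD45high D7. Without CD45low D7 replicate 2 Hspa1b was at -1.03 ± 0.62 and Hspa1a at -0.37 ± 0.46, and without CD45low D7 replicate 1 Hspa1b was called. In the same gate the 12 choroid plexus epithelial markers summed to 684 to 1078 CPM at D14 and 130 to 375 CPM at D7, the 9 neutrophil markers to 702 to 1036 CPM at D14 and 1167 to 4201 CPM at D7, and the 5 neuronal markers to 5.52 to 15.6 CPM at D14 and 39.1 to 49.3 CPM at D7. Of the 8 neutrophil markers tested 8 were negative and 1 was called, with a median of -1.65, and the part of these cells in the values above was not tested. In CD45high cells 0.011% of all genes passed, and 6 members and 954 genes had an unadjusted p under 0.05. The lowest p-values were those of Atf6 (1.03 ± 0.30, adjusted p = 0.219), Edem1 (-0.74 ± 0.22), Hspd1 (0.94 ± 0.31) and Pdia4 (-1.87 ± 0.74). Edem1 had 182 and 158 CPM in CD45high D14 against 301, 282 and 269 CPM in CD45high D7, beside 246, 275 and 269.6 CPM in CD45low D14 and 205, 263 and 274 CPM in CD45low D7. Hspd1 had 142 and 152 CPM in CD45high D14 against 105, 67.5 and 61.0 CPM in CD45high D7, beside 98.3, 105 and 152 CPM in CD45low D14 and 107, 153 and 95.03 CPM in CD45low D7. Pdia4 had 7.26 and 6.16 CPM in CD45high D14 against 22.9, 11.7 and 38.4 CPM in CD45high D7, beside 19.7, 20.1 and 32.2 CPM in CD45low D14 and 34.8, 12.9 and 40.2 CPM in CD45low D7. Within CD45high cells the D14 and D7 libraries of each of these 4 genes did not overlap, and within CD45low cells they overlapped. These genes were picked for their low p in CD45high cells, and Manf for its low p in CD45low cells. Their separation in that gate alone therefore follows from the choice, and the share of all genes without overlap was not counted. In that gate the neutrophil markers summed to 9967 to 11342 CPM at D14 and 16385 to 17345 CPM at D7, and the 5 oligodendrocyte markers to 214 to 218 CPM at D14 and 431 to 680.2 CPM at D7, and their part was not tested either.

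Genes of the wider folding network moved in both directions between the gates. Of 23 other cytosolic chaperones and co-chaperones tested, 4 were higher and 7 lower, among them Hspa4l (2.95 ± 0.45), an HSP110 relative, and the J-domain proteins Dnajb4 (-2.33 ± 0.39) and Dnaja4 (-2.55 ± 0.56). The cytosolic chaperonin TRiC had 2 of 7 subunits lower, Cct6a (-0.47 ± 0.16) and Cct3 (-0.49 ± 0.20), and none higher. Of 8 mitochondrial chaperones and proteases 4 were lower and none higher, with a median of -0.67 and with Grpel2, Clpx and Hspa9 at -1.20 ± 0.25, -1.12 ± 0.27 and -0.67 ± 0.23. Against 26.8% higher and 26.4% lower in all genes, none of these lists is called particular.

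In the ER, 6 of 28 further folding, translocation and degradation genes were higher and 5 lower. Serp1, which protects membrane proteins at the translocon, and Sec61b, a subunit of the translocon channel, were higher by 1.59 ± 0.14 and 1.72 ± 0.22, while the prolyl isomerase Fkbp14 had 0 counts in the 5 CD45high libraries and 79 over the 6 CD45low libraries. The sensors and their processing factors had 2 higher and 2 lower of 9, including the NF-Y subunit Nfyb (0.94 ± 0.21) and the proteases that cleave ATF6, Mbtps2 (-1.63 ± 0.42) and Mbtps1 (-0.69 ± 0.21). Among 20 targets of PERK and ATF4 tested, 7 were higher and 6 lower. Eif4ebp1, a brake on translation, Cebpb, a myeloid transcription factor, and Mthfd2, an enzyme of mitochondrial folate metabolism, were higher by 1.99 ± 0.16, 1.53 ± 0.16 and 2.17 ± 0.29. In the choroid plexus no gene of these lists passed in any comparison.

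Cell cycle markers moved with the gate as the cell type markers did. All 8 were called higher in CD45high cells, and they summed to 1022 to 1928 CPM in CD45high libraries and 60.2 to 148 CPM in CD45low libraries. The 9 immediate early genes overlapped, with 8449 to 12406 CPM in CD45high libraries and 11393 to 15530 CPM in CD45low libraries, 2 called higher and 3 lower, and a median of -0.04. The 8 B and plasma cell markers, low in both gates, overlapped too, with 17.6 to 67.8 CPM and 34.0 to 62.1 CPM. The part of cell composition or cell cycle in the lower ER and heat shock levels was not tested.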

How the data were processed

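Polyadenylated RNA was read at its 3′ end in 14 choroid plexus and 11 sorted-cell libraries. The submitters' processing notes name Bowtie2, HOMER and mm9, with no version. The authors deposited whole-number counts per gene that were not normalized, and separately a signal per gene that holds reads scaled by a factor per library. Of the scaled values 100% came out whole within 0.05 reads. Scaled and counted reads were equal for about 99.8% of genes in each choroid plexus library and for 56.6% to 69.1% in the sorted libraries, and the step behind the difference is unknown.

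The members and lists were chosen with earlier results of these data known. Counts were tested with edgeR 4.0.16 in R 4.3.3 (quasi-likelihood test, TMM factors, default filter by group, Benjamini-Hochberg adjustment over all genes tested, called at 0.05). The choroid plexus fit had group means and the letter as a covariate (10 residual degrees of freedom), the sorted fit group means alone (7). Standard errors are the log2 fold change over the square root of F. All 37 members are accounted for. Named were 10 regulators and chaperones in every library, the members of lowest p per comparison (6 in choroid plexus, 4 for D14 over D7 and for the gate by D difference), the 12 called members of largest fold change between gates, and the 3 genes of lowest p per wider list. Naming by p favours genes whose groups do not overlap, and the share of such genes over all genes was not counted. On simulated counts 93% of 2-fold changes were recovered for anti-PD-1 over IgG and 73% for the gate mean, with 0.0876% and 0.048% of unchanged genes called. Within each tissue the simulation gave every gene the same spread and changed only well counted genes, so these shares do not cover variable or low genes. No libraries of a group agreed within sampling noise. Values within the letters F and M come from a fit with a mean per group and letter, added after seeing the data, and other genes given in every library were chosen after their values were seen. DESeq2 1.42.0, RLE factors, other filters, recovered reads, other covariates and leaving out each library were tried. Near copies were sought with blastn among the reference transcripts. Promoters came from RefSeq on GRCm38.p6. No genome of the mm9 build was used.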

Additional observations from a re-analysis of the deposited data

Results flagged for a closer look

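In the choroid plexus groups, the libraries of each of the 37 genes were examined for a single value far from the rest, 111 sets in all, of which chance flags about 1 in 20, and 2 were found. Calr in untreated replicate 2 was at 1837 CPM, low against 2131 to 2150 CPM in the other untreated libraries. Hspe1 in IgG replicate 4 was at 78.2 CPM, high against 51.7 to 58.7 CPM in the other IgG libraries. Neither gene passed any choroid plexus comparison. No difference between the gates' D effects, or between the letters, passed its test for a member.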

How the results depend on the processing

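Apart from the leave-one-out fits, 712 of 779 values kept their direction and side of the threshold or, for counts and medians, stayed close to the main value. Genes uncalled in both the main and the other fit count as kept here, if their direction held. Among the counts of called genes and members alone, 101 stayed close and 29 moved. For single genes these values covered the called members of the gate comparisons and the members of lowest p in the others. Of these only Hsf1 reversed, at 0.049 for anti-PD-1 over IgG in F libraries alone against -0.30 in all. Reversals among the remaining members were not counted. DESeq2 called 1, 2 and 2 genes for anti-PD-1 over IgG, anti-PD-1 over untreated and IgG over untreated, and 23 and 18 for D14 over D7 in the CD45low and CD45high gates, where edgeR called 9 and 1. Without a filter on low counts the choroid plexus counts were 31, 13 and 27 genes, with 1 member (Herpud1) for anti-PD-1 over IgG and 2 (Herpud1, Hspa1b) for IgG over untreated. The same setting called 128 and 114 genes for D14 over D7 in the CD45low and CD45high gates and 31 for the gate by D difference, with 2 members (Hspa1a, Hspa1b) in CD45low and in the gate by D difference. RLE factors, and a mean count of at least 10, each called 0 genes for D14 over D7 in CD45high cells. Recovered reads called 3 and 5 genes for D14 over D7 in CD45low and CD45high cells and 16 members for the gate at D14. Without the letter anti-PD-1 over untreated called 1 gene, and M libraries alone called 1 gene for it and 1 for anti-PD-1 over IgG. With a replicate block by replicate number (the number after the group name in the titles, in place of the letter), anti-PD-1 over IgG called 1 gene and IgG over untreated 2. With a replicate block by leading title number the gate mean called 19 members, without Hspa5, Hspb1 and Pdia3, with a heat shock median of -0.04 (7 positive, 8 negative) against -0.37 with no block, the gate at D14 1 member (Canx), and the gate by D difference 1 gene. With a block by replicate number D14 over D7 called 15 genes in CD45low and 4 in CD45high cells. Same-numbered libraries deviated together by r of -0.04 to 0.16 over 13 choroid plexus pairs and 0.01 to 0.06 over 5 sorted pairs. Their medians were 0.06 and 0.04. Other pairs had a median of -0.01 in choroid plexus (-0.15 to 0.19 over 52 pairs). In sorted cells their median was -0.01 as well (-0.08 to 0.10 over 40 pairs). So few pairs cannot settle whether the numbers pair samples, and the main fits do not pair them. Leaving out 1 library at a time gave 0 to 2 genes for anti-PD-1 over IgG, 0 to 1 for IgG over untreated, 16 to 23 members for the gate mean, 12 to 17 at D7, 0 to 9 at D14, 0 to 34 genes and 0 to 1 members for D14 over D7 in CD45low cells, and 0 to 13 genes in CD45high cells. The gate mean call of Hspb1 was lost without CD45low D7 replicate 1 or 2, any CD45low D14 library or CD45high D14 replicate 2. A lost call can also be a gene removed by the filter on low counts. Hspb1 was not tested without CD45low D7 replicate 2. The call of Hspa4 was lost without CD45low D7 replicate 2, CD45high D7 replicate 3 or CD45high D14 replicate 1, and that of Atf4 without CD45high D14 replicate 1. The causes were not tested. Depth limits Trib3, Hyou1, choroid plexus Atf4 and sorted Hspb1, and 2 CD45high D14 libraries limit that group.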
